A study of Mus musculus with 10 samples.

Results

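The 10 genes described here encode the matrix of growth-plate cartilage, or control it: Acan, Hapln1, Comp, Chad, Col2a1, Col9a1, Col9a2, Col9a3, Col10a1 and Sox9. They were taken by name from a table of 38962 genes, and all 10 were among the 22088 genes that passed a filter on low counts. RNA came from femurs of 5 aged mice (22 months) and 5 young mice (2 months), all male C57BL/6J without a transgene or treatment, and each mouse gave 1 library. Femurs were flushed of marrow, frozen and pulverized. The aged mice came from the National Institute of Aging colony and were kept in house until 22 months, and the young mice were bought from the Jackson Laboratory, so age and supplier cannot be told apart. The study's methods call the material femur cortex cleared of marrow, while the sample labels speak of femurs, and neither says how much of the bone ends, which carry the growth plates and the joint cartilage, was kept.

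Long bones grow at the growth plate, where chondrocytes divide in columns, enlarge (hypertrophy) and are replaced by bone. The transcription factor Sox9 keeps cells in the chondrocyte state and drives the genes of their matrix. That matrix is a network of thin fibrils of type II collagen coated with type IX collagen and filled with the proteoglycan aggrecan, which holds water and is tied to hyaluronan by link protein. Hypertrophic chondrocytes make type X collagen. Mouse growth plates thin with age but, unlike human ones, do not fully fuse.

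The bases before the start of 4 of these genes are shown. Acan, Col9a1 and Chad are among the genes whose levels separated the age groups, and Col10a1 marks hypertrophy. Hapln1 and Col9a2 also separated the groups and had a window, which is not shown. Each run holds the 250 bases before a RefSeq start on GRCm38.p6, written 5′ to 3′. Capitals mark the letters TATAAA on the gene strand, known as a TATA box. They also mark GGGCGG on both strands, known as a GC box, and the letters ACAATG, or in their place ACAAAG, on both strands, which SOX proteins bind. Neighbouring GC boxes may overlap.
Acan, chr7:79052976-79053225, + strand: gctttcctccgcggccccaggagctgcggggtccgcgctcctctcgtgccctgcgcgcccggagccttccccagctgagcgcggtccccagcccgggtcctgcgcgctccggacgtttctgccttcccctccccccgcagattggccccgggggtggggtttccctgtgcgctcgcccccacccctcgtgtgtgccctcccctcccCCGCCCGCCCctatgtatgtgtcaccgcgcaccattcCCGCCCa
Col9a1, chr1:24177360-24177609, + strand: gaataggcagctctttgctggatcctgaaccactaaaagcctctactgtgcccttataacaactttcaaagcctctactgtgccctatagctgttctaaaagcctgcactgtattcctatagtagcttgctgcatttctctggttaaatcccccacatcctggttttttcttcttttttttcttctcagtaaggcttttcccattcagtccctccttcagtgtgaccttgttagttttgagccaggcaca
Col10a1, chr10:34389731-34389980, + strand: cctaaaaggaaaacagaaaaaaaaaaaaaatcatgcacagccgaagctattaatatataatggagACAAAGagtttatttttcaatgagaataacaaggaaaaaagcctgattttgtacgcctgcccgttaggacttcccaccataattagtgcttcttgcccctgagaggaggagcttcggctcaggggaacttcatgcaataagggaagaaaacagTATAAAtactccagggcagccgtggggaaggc
Chad, chr11:94564797-94565046, + strand: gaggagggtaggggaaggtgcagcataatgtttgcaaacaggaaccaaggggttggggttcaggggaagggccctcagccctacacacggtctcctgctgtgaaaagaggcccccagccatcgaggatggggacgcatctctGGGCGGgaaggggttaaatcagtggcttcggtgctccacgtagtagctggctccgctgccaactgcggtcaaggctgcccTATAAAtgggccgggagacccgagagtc

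Acan had 3 GC boxes, the first of their bases lying 44, 40 and 7 bases before the start. Col10a1 had a TATA box 32 bases and an ACAAAG 185 bases before its start, and Chad had a TATA box at 28 bases and a GC box at 108. In the Col9a1 window none of these letters occurred. Of 32536 windows of the same length from all genes, 7.55% held the TATA box, 33.0% the GC box and 25.0% a SOX motif. A window was found for 6 of the 10 genes (Acan, Col9a1, Col9a2, Col10a1, Hapln1 and Chad). Col9a1 had a second RefSeq start further into the gene, and the counts per gene do not separate transcripts from the separate starts. The matches describe the letters of these windows only.

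Libraries held 31788232 to 45075335 counts in aged mice and 33447009 to 40395050 counts in young mice (two-sided exact permutation test, p = 0.206). The noncoding RNA Gm26917 took 16.1% to 31.0% of the counts in aged mice and 14.5% to 24.0% in young mice. Levels are counts per 1000000 counts of the library (CPM), with library sizes adjusted by edgeR's TMM factors, fold changes are aged over young on the log2 scale, and the p-values are those of edgeR's quasi-likelihood fit, adjusted over all 22088 genes. The label bone was checked against osteoblast markers, which were abundant, and Col1a1, the main chain of bone collagen, averaged 17807 ± 6845 CPM in aged mice and 41575 ± 13139 CPM in young mice (SD, n = 5 each). Some markers of cartilage were scarce: Matn3, Matn1, Ucma and Epyc failed the filter, with Matn3 at 1 to 13 counts per aged library and 4 to 114 counts per young library and Epyc at 0 to 1 counts per aged library and 0 to 5 counts per young library.

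Of the 10 cartilage genes, 5 were lower in aged femurs (Acan, Hapln1, Col9a1, Col9a2 and Col10a1) and the other 5 did not pass the test, against 3.61% lower and 3.68% higher among all tested genes (798 and 812 genes, or 917 and 285 when scaled by total counts alone). Their median log2 fold change was -1.67, while that of all tested genes was 0.01. None was higher (0 with edgeR, also 0 at an unadjusted p of at most 0.05, 0 with DESeq2 and 0 with limma-voom), and all 10 log2 fold changes were negative. Every aged mouse was below every young mouse in 5 genes, which were Acan, Hapln1, Col9a1, Col9a2 and Chad, a separation seen in 4.12% of all tested genes. Fewer cells of a type and less RNA per cell cannot be told apart in RNA of whole bone.

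**Figure D1:**
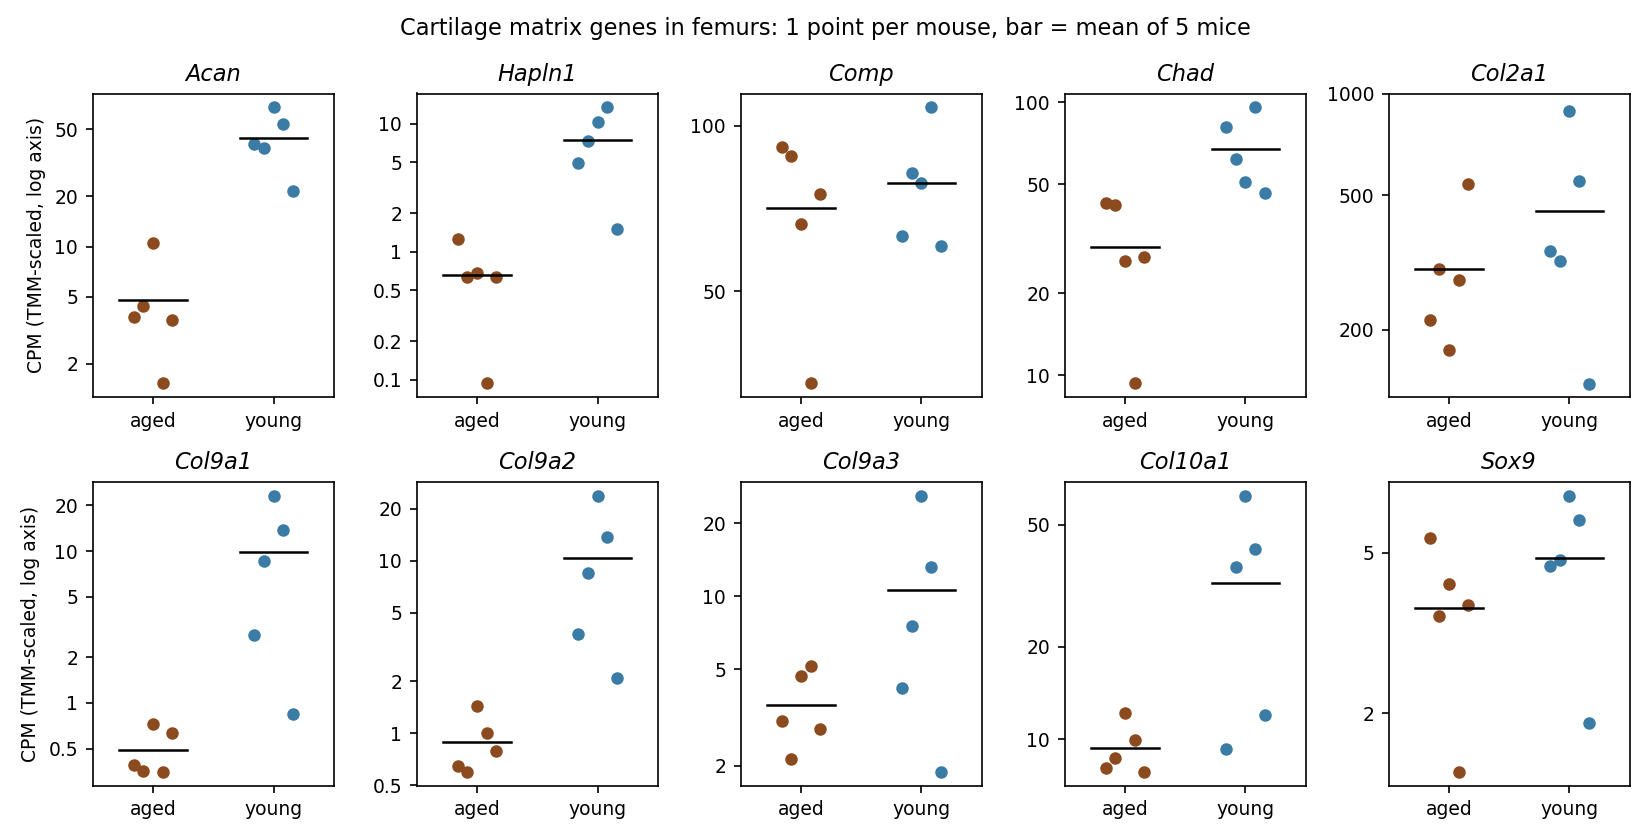
CPM (TMM-scaled, log axis, a separate axis for each gene) of the 10 cartilage genes, with 1 point per mouse, aged mice left and young mice right, and a bar at the mean of 5 mice. The groups do not overlap for Acan, Hapln1, Chad, Col9a1 and Col9a2, and they overlap widely for Comp, Col2a1 and Sox9.

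Acan, the gene of the core protein of aggrecan (ENSMUSG00000030607.7, chromosome 7 from 79053483 to 79115099, + strand), had 3.77, 4.397, 10.5, 1.52 and 3.62 CPM in aged mice 1 to 5, against 40.9, 38.7, 67.8, 53.6 and 21.4 CPM in young mice 1 to 5. The highest aged mouse (number 3) was below the lowest young mouse (number 5). Acan fell by 3.25 on the log2 scale (standard error 0.46, 95% interval -4.25 to -2.25, edgeR adjusted p = 0.00244). Hapln1, the gene of the link protein (ENSMUSG00000021613.9, chromosome 13 from 89539796 to 89611652, + strand), had 1.26, 0.637, 0.683, 0.0937 and 0.633 CPM in aged mice 1 to 5, against 4.98, 7.28, 10.4, 13.5 and 1.51 CPM in young mice 1 to 5. Aged mouse 1 came close to young mouse 5, while the other young mice were at least 4.98 CPM. Hapln1 fell by 3.52 (standard error 0.61, 95% interval -4.87 to -2.18, edgeR adjusted p = 0.00724). The aged values of Hapln1 rest on 4 to 45 counts per library and those of Acan on 65 to 277.

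Comp and Chad encode proteins that bind collagen in the matrix, and both are also made in tendon. Comp, the gene of cartilage oligomeric matrix protein (ENSMUSG00000031849.9, chromosome 8 from 70373558 to 70382066, + strand), had 91.4, 88.1, 66.3, 34.0 and 75.2 CPM in aged mice 1 to 5, against 63.1, 82.3, 78.9, 108 and 60.6 CPM in young mice 1 to 5. The groups overlapped except for a low value in aged mouse 4 and a high one in young mouse 4. Its log2 fold change was -0.15 (standard error 0.25, 95% interval -0.68 to 0.39, edgeR adjusted p = 0.744). Chad, the gene of the leucine-rich protein chondroadherin (ENSMUSG00000039084.8, chromosome 11 from 94565047 to 94569127, + strand), had 42.6, 41.9, 26.1, 9.35 and 27.1 CPM in aged mice 1 to 5, against 81.0, 62.2, 51.1, 95.8 and 46.6 CPM in young mice 1 to 5. All aged mice were below all young mice, yet the gene missed the threshold, with a log2 fold change of -1.19 (standard error 0.35, 95% interval -1.96 to -0.42, edgeR adjusted p = 0.0621). It passed with DESeq2 (adjusted p = 0.00461), with limma-voom (adjusted p = 0.0412), and without aged mouse 1, 2 or 4 (edgeR adjusted p = 0.0405, 0.0478 and 0.0417). It did not pass under the other alternatives, among them no filter on low counts (adjusted p = 0.170), the muscle markers as a covariate (0.206), the replicate number as a block (0.110) and each other library left out (0.0623 to 0.160, all with edgeR). With the tendon markers as a covariate its log2 fold change was -0.54. Chad lies inside Acsf2, a gene on the opposite strand with which it shares no exon bases and which had 19.3 ± 1.43 CPM in aged mice and 17.9 ± 1.23 CPM in young mice (SD, n = 5 each).

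Col2a1, the gene of the type II collagen chain (ENSMUSG00000022483.17, chromosome 15 from 97975602 to 98004695, - strand), was the most abundant of the 10 genes in CPM in both groups. It had 214, 303, 174, 281 and 539 CPM in aged mice 1 to 5, against 342, 319.8, 886, 551 and 138 CPM in young mice 1 to 5. The lowest of all 10 libraries was young mouse 5, and only young mice 3 and 4 exceeded aged mouse 5. Col2a1 did not pass the test (log2 fold change of -0.57, standard error 0.44, 95% interval -1.53 to 0.40, edgeR adjusted p = 0.445). Aged libraries held 4589 to 21308 Col2a1 counts, so its level there is not near the detection limit.

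Type IX collagen is a trimer of different chains, each with a gene of its own. Col9a1 (ENSMUSG00000026147.16, chromosome 1 from 24177610 to 24252684, + strand) had 0.391, 0.358, 0.721, 0.352 and 0.633 CPM in aged mice 1 to 5, against 2.80, 8.59, 23.1, 13.8 and 0.849 CPM in young mice 1 to 5. Young mouse 5 was only just above the aged mice. Col9a1 fell by 4.35, the largest estimate of the 10 genes (standard error 0.79, 95% interval -6.07 to -2.63, edgeR adjusted p = 0.00887). This interval holds the estimates of Acan, Hapln1 and Col9a2, so the order of these genes is not settled. Without young mouse 3 Col9a1 fell by 3.76 (edgeR adjusted p = 0.0165), and its aged values rest on 14 to 25 counts per library. With limma-voom it did not pass (log2 fold change of -3.59, adjusted p = 0.0690), and Hapln1 and Acan had -3.55 and -3.45.

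Col9a2 (ENSMUSG00000028626.5, chromosome 4 from 121039385 to 121055322, + strand) had 0.643, 0.597, 1.44, 1.01 and 0.785 CPM in aged mice 1 to 5, against 3.75, 8.46, 23.8, 13.7 and 2.099 CPM in young mice 1 to 5. Its order among the young mice was that of Col9a1. Col9a2 fell by 3.56 (standard error 0.62, 95% interval -4.91 to -2.20, edgeR adjusted p = 0.00728). Col9a3 (ENSMUSG00000027570.15, chromosome 2 from 180597790 to 180622189, + strand) had 3.05, 2.13, 4.71, 5.16 and 2.83 CPM in aged mice 1 to 5, against 4.18, 7.56, 25.9, 13.2 and 1.89 CPM in young mice 1 to 5. Young mouse 5 was below all aged mice, and Col9a3 did not pass (log2 fold change of -1.56, standard error 0.58, 95% interval -2.83 to -0.29, edgeR adjusted p = 0.122). It passed without young mouse 5, with a fold change of -1.83 on the log2 scale (edgeR adjusted p = 0.0461). It passed under none of the other alternatives, and without young mouse 3 its log2 fold change was -0.92 (edgeR adjusted p = 0.260).

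The composition of the type IX chains differed between the age groups. Its aged values rest on few counts, 14 to 25 per library for Col9a1 and 23 to 43 for Col9a2. Per kilobase of exons, Col9a3 made up 66.0% to 77.2% of the 3 chains in aged mice and 30.7% to 38.1% in young mice. Col9a2 averaged 22.0% ± 2.86 in aged mice and 43.7% ± 4.06 in young mice, and Col9a1 7.76% ± 2.61 in aged mice and 21.6% ± 5.80 in young mice (SD, n = 5 each). The ratio of Col9a3 to Col9a2 counts was 3.23 to 5.07 in aged mice and 0.893 to 1.12 in young mice, a difference of 2.00 on the log2 scale (two-sided exact permutation test, p = 0.00794, 0.0136 adjusted over 12 ratios). Col9a2 alone already separated the groups, while Col9a3 did not pass, so the ratio is not a result separate from Col9a2. Col9a1 to Col9a2 did not pass (difference of -0.49, two-sided exact permutation test, adjusted p = 0.212). Col9a3 shares 234 exon bases with Tcfl5 on the opposite strand, and 4.24% of its 75-base stretches recur in transcripts of Tcfl5. No source used here says whether reads were counted by strand. Tcfl5 was at 0.257 ± 0.183 CPM in aged mice and 0.663 ± 0.193 CPM in young mice (SD, n = 5 each), below Col9a3 in both. For the other 9 genes no 75-base stretch recurred in a transcript of another gene.

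**Figure D2:**
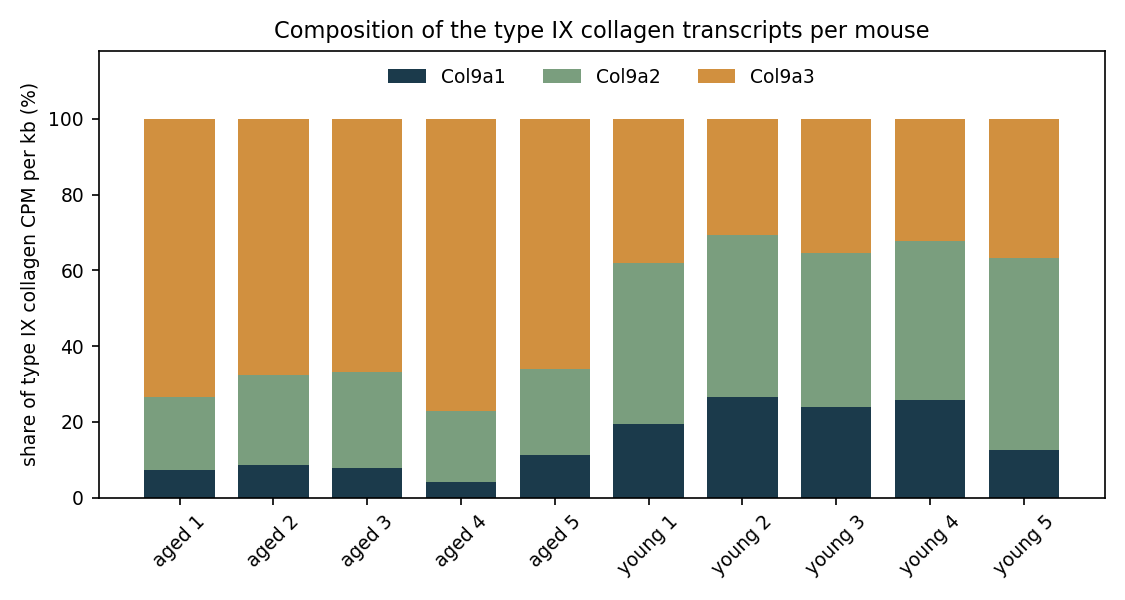
Share of each type IX collagen chain (%) in the summed CPM per kilobase of the 3 chains, with 1 bar per mouse, aged mice left and young mice right. Col9a3 takes 66.0% or more in each aged mouse and 38.1% or less in each young mouse.

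Col10a1, which marks hypertrophic chondrocytes (ENSMUSG00000039462.4, chromosome 10 from 34389981 to 34397085, + strand), had 8.02, 8.67, 12.2, 9.94 and 7.82 CPM in aged mice 1 to 5, against 9.29, 36.3, 62.0, 41.5 and 11.96 CPM in young mice 1 to 5. The aged mice lay close together, while young mice 1 and 5 were within the aged range and the other 3 young mice far above it. Col10a1 fell by 1.79 (standard error 0.45, 95% interval -2.78 to -0.80, edgeR adjusted p = 0.0376). Leaving out a library ended this call in all cases but young mice 1 and 5, with edgeR adjusted p of 0.0504, 0.0549, 0.0817, 0.0962 and 0.0841 without aged mice 1 to 5 and 0.0917, 0.0695 and 0.101 without young mice 2, 3 and 4. It also ended with limma-voom (adjusted p = 0.0778), with no filter on low counts (edgeR adjusted p = 0.114) and with the muscle markers as a covariate (edgeR adjusted p = 0.0751). The log2 fold change itself stayed between -2.02 and -1.41 with each library left out and was -1.46 with limma-voom, -1.80 with no filter and -1.88 with the muscle covariate. Col10a1 shares 18 exon bases with Nt5dc1 on the opposite strand, which averaged 15.7 ± 1.003 CPM in aged mice and 14.3 ± 1.38 CPM in young mice (SD, n = 5 each).

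Sox9 (ENSMUSG00000000567.5, chromosome 11 from 112782224 to 112787760, + strand) had 5.45, 3.48, 4.18, 1.43 and 3.72 CPM in aged mice 1 to 5, against 4.64, 4.81, 6.93, 6.03 and 1.89 CPM in young mice 1 to 5. The lowest mouse of each group (aged 4 and young 5) stood well below its other mice, and the rest overlapped. Sox9 did not pass (log2 fold change of -0.41, standard error 0.36, 95% interval -1.20 to 0.37, edgeR adjusted p = 0.497).

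**Figure D3:**
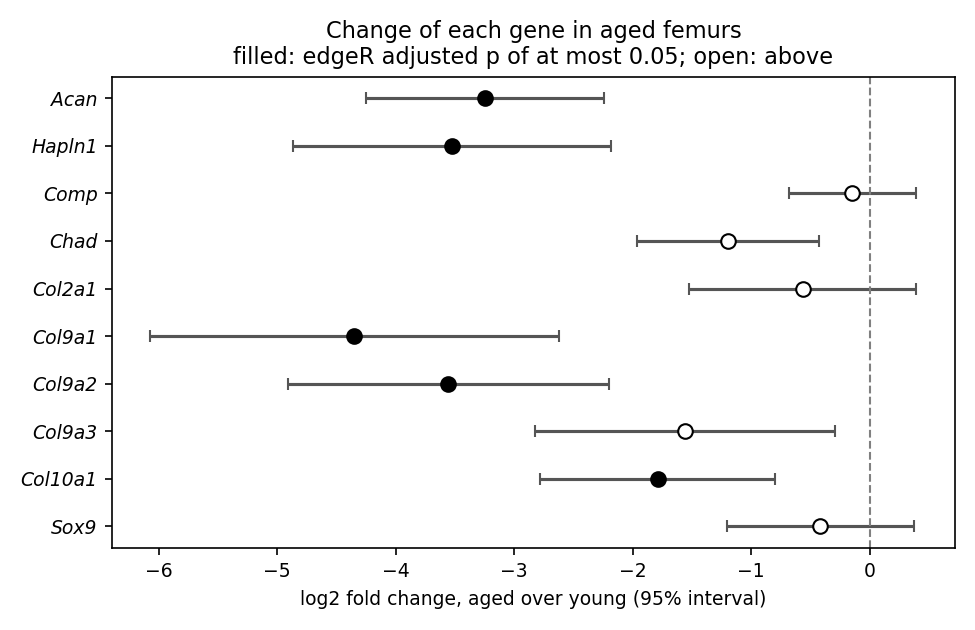
Log2 fold change of each gene, aged over young, with its 95% interval from edgeR's fit. Filled points passed the threshold of 0.05 on the adjusted p. Col9a1 lies furthest left at -4.35, with an interval that holds the points of Acan, Hapln1 and Col9a2. The intervals of Comp, Col2a1 and Sox9 include 0.

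To test whether the genes changed by different amounts, ratios of counts within a library were compared by two-sided exact permutation over every split of 10 libraries, whose smallest p is 0.00794, adjusted over 12 ratios. Of these, 7 passed the exact permutation test, each with no overlap between the groups, with p = 0.00794 and an adjusted p of 0.0136. All of them but Col9a3 to Col9a2 have Acan as the denominator. Acan itself was lower in every aged mouse than in every young mouse, and so was Col9a2. The 7 ratios are therefore not results separate from the fall of their denominators. How many ratios of other genes to Acan or to Col9a2 separate the groups was not measured. The ratio of Col2a1 to Acan was 16.5 to 183 in aged mice and 6.47 to 13.1 in young mice, a difference of 2.97 on the log2 scale. The ratio of Comp to Acan was 6.29 to 24.1 in aged mice and 1.16 to 2.83 in young mice, a difference of 3.19. Acan thus changed more than Col2a1 and more than Comp.

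The ratio of Sox9 to Acan was 0.398 to 1.44 in aged mice and 0.0887 to 0.124 in young mice, a difference of 2.98. In young mice this ratio had the smallest spread of the 9 ratios to Acan (SD 0.19 on the log2 scale, n = 5), so that Sox9 and Acan differed between young mice in nearly the same proportion. Chad, Col9a3 and Col10a1 also rose relative to Acan, by 2.07, 2.29 and 1.93. The ratios of Col9a1, Col9a2 and Hapln1 to Acan did not pass, with differences of -0.21, 0.29 and -0.13 (adjusted p = 0.817, 0.743 and 0.817 in the same exact permutation test), nor did Col10a1 to Col2a1, with a difference of -1.04 (adjusted p = 0.155).

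**Figure D4:**
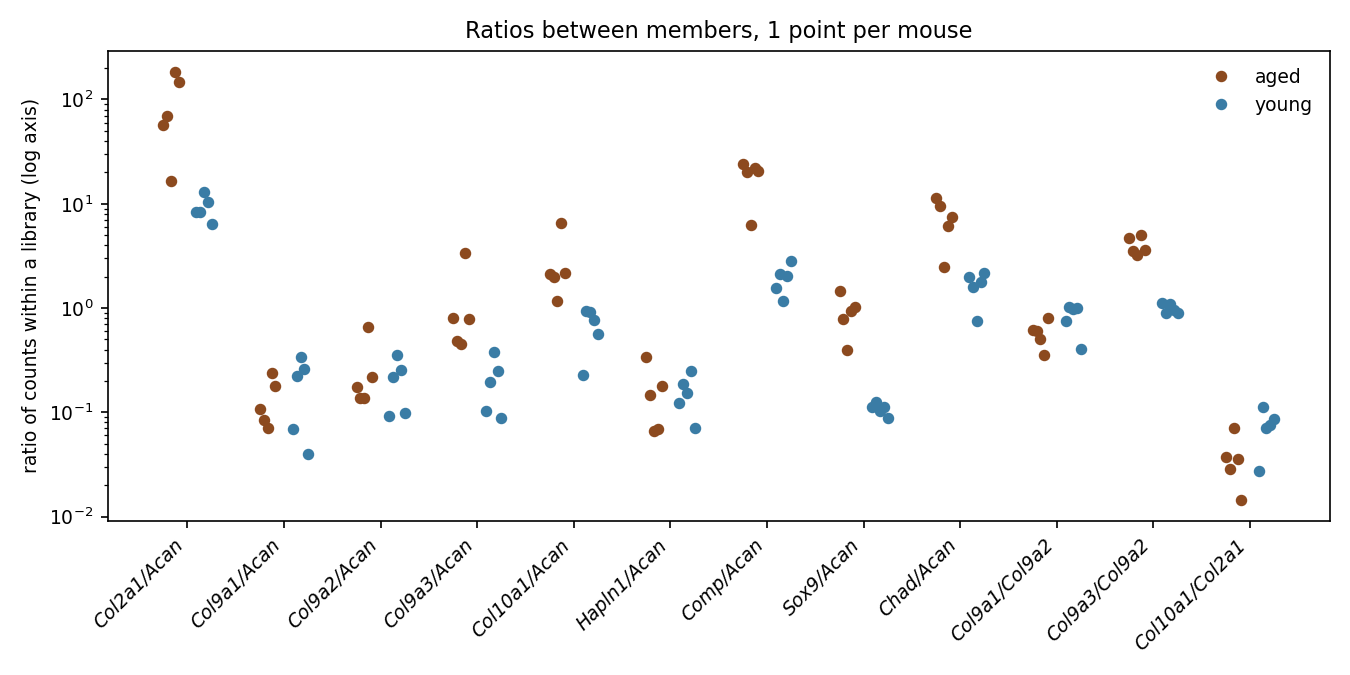
Ratio of counts of pairs of genes within a library (log axis), with 1 point per mouse and aged mice left of young mice in each pair. Aged and young mice are apart for Col2a1, Col9a3, Col10a1, Comp, Sox9 and Chad over Acan and for Col9a3 over Col9a2, and they overlap for the other 5 ratios.

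The young mice differed more among themselves in cartilage genes than in most genes. The median SD of log2 CPM over the 10 genes was 0.60 among aged mice and 1.10 among young mice, while over all tested genes it was 0.28 among aged mice and 0.25 among young mice. Of the 10 genes, 4 in aged mice and 8 in young mice were above the 90th percentile of all tested genes. Among young mice Col9a1 had the largest CV of the 10 genes, with a CV of 35.3% in aged mice and 91.5% in young mice, its highest young mouse having 27.2 times the CPM of the lowest. Col9a3 came next among young mice, with a CV of 36.2% in aged mice and 90.9% in young mice. Col10a1 was the tightest gene in aged mice, with a CV of 19.3%, against 68.1% in young mice. Comp, Chad and Acan had the larger CV in aged mice, with values of 32.4%, 46.5% and 71.1% in aged mice and 24.2%, 30.7% and 39.0% in young mice, while Hapln1 (62.4% in aged mice and 61.7% in young mice) and Sox9 (39.9% in aged mice and 39.2% in young mice) hardly differed in CV.

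The order of the young mice was similar from gene to gene. Young mouse 5 was lowest in 9 of the 10 genes, with Col10a1 as the exception, where young mouse 1 was lowest. Young mouse 3 was highest in 7 genes and young mouse 4 in the other 3 (Hapln1, Comp and Chad), and young mouse 4 was first or second in all 10. The mean deviation of the 10 genes from the young mean, on the log2 scale, lay between -2.46 (mouse 4) and -1.47 (mouse 3) in aged mice. It was -0.46, 0.14, 0.98, 0.73 and -1.39 in young mice 1 to 5, so that young mouse 5 came closest to the aged mice. Aged mouse 4 was lowest in 6 genes but highest in Col9a3, and aged mice 1 and 3 were highest in 4 each.

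**Figure D5:**
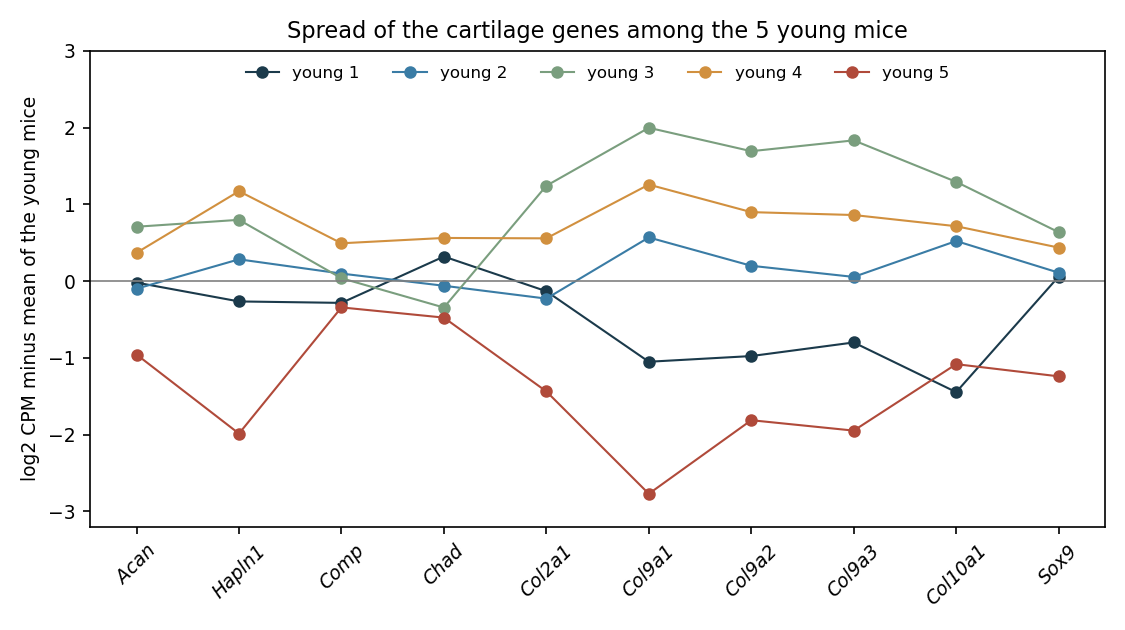
Log2 CPM of each cartilage gene in each young mouse, minus the mean of the 5 young mice. Young mouse 5 lies lowest for every gene but Col10a1, and the highest is young mouse 3 for 7 genes and young mouse 4 for Hapln1, Comp and Chad.

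Summed markers of other bone cells moved with part of this order. Osteoclast markers summed to 1343, 1275, 2167, 1611 and 1083 CPM in young mice 1 to 5, and osteoblast markers to 79258, 56305, 95530, 62383 and 45286 CPM, with young mouse 3 highest and young mouse 5 lowest in both. The osteoblast sum is mostly Col1a1 and Col1a2 (59885 and 29385 CPM in young mouse 3). Each osteoblast marker was lowest in young mouse 5. Most were highest in young mouse 3, but not all, and Bglap2 was highest in young mouse 1 (266 CPM). Genes of hypertrophic and mineralizing cartilage, many of which osteoblasts also express, summed to 1676, 1941, 2704, 2149 and 1139.98 CPM in young mice 1 to 5. Alpl, Ibsp and Runx2 are in both this sum and the osteoblast sum. Skeletal muscle markers shared with this order only young mouse 3 as the highest (23758 CPM). Young mouse 4 was lowest (7664 CPM), and young mouse 5 (17649 CPM) was above young mice 1, 2 and 4. The part of these cells in the spread among young mice was not tested.

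Levels of different genes were compared per kilobase of exons. In aged mice Col2a1 averaged 32.7 ± 15.4, Comp 23.9 ± 7.75 and Chad 17.5 ± 8.14 CPM per kilobase (SD, n = 5), and these neighbours lay within each other's spread. Col10a1 followed with 2.98 ± 0.57, then Col9a3 with 0.928 ± 0.336, Sox9 with 0.883 ± 0.352 and Acan with 0.638 ± 0.454, and the last were Col9a2 (0.289 ± 0.112), Hapln1 (0.112 ± 0.070) and Col9a1 (0.097 ± 0.034). In young mice Col2a1 averaged 48.4 ± 30.9, Chad 40.1 ± 12.3 and Comp 26.5 ± 6.41 CPM per kilobase. Next came Col10a1 with 10.3 ± 7.01 and Acan with 5.96 ± 2.32, then Col9a2 (3.35 ± 2.83), Col9a3 (2.74 ± 2.49), Col9a1 (1.94 ± 1.78), Hapln1 (1.28 ± 0.787) and Sox9 (1.18 ± 0.461), whose spreads overlap. Acan thus stood below Col9a3 and Sox9 in aged mice by mean level, within their spread, and above both in young mice. The mean of the transcription factor Sox9 was above that of Hapln1 in aged mice and below it in young mice.

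Among 15 other cartilage matrix genes, 10 were tested, of which 3 were lower, 0 higher and 7 did not pass (median log2 fold change of -0.95). At an unadjusted p of at most 0.05 6 were lower, with DESeq2 6 and with limma-voom 4, and 0 were higher in each. Col11a1, a chain of the type XI collagen that lies inside type II fibrils and is also made by bone cells, had 112 to 287 CPM in aged mice and 458 to 1027 CPM in young mice (log2 fold change of -2.11, edgeR adjusted p = 0.00153). Matn4, which encodes a matrilin that links matrix filaments, fell by 1.12, and Cnmd, which encodes the vessel inhibitor chondromodulin, fell by 2.75 (edgeR adjusted p = 0.00486 and 0.0137). Cnmd was at 0.0759 to 0.380 CPM in aged mice and 0.425 to 2.98 CPM in young mice, with young mouse 5 again lowest among the young. Col11a2, another chain of type XI collagen, averaged 622 ± 205 CPM in aged mice and 1073 ± 325 CPM in young mice (SD, n = 5 each; edgeR adjusted p = 0.0587).

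Of 10 transcription factors and their regulators 8 were tested, of which Hdac4, which restrains hypertrophy, had 93.2 ± 8.28 CPM in aged mice and 68.0 ± 5.96 CPM in young mice and rose (SD, n = 5 each; log2 fold change 0.46; edgeR adjusted p = 0.0138), 7 did not pass and 0 were lower (0 also at an unadjusted p of at most 0.05, with DESeq2 and with limma-voom). At an unadjusted p of at most 0.05 and with DESeq2 2 were higher, and with limma-voom 1 was. Mef2c, a factor that promotes hypertrophy and is also active in muscle and bone, averaged 285 ± 100.2 CPM in aged mice and 182 ± 34.3 CPM in young mice (SD, n = 5 each) and did not pass (log2 fold change of 0.65, edgeR adjusted p = 0.103). Sox5 and Sox6, the partners of Sox9, had log2 fold changes of -0.01 and -0.23 (edgeR adjusted p = 0.987 and 0.336).

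Of 15 growth-plate signalling genes 13 were tested, and 3 were lower, 2 higher and 8 did not pass. Igf1, a growth factor of bone, fell by 0.75, Fgf18, a growth factor that acts on chondrocytes, fell by 1.92, and Smo, the hedgehog signal transducer, fell by 0.43 (edgeR adjusted p = 0.00499, 0.00632 and 0.0298). Gli1, a hedgehog target, rose by 0.83 and Bmpr1b, a receptor of bone morphogenetic proteins, rose by 1.54 (edgeR adjusted p = 0.00801 and 0.0273). Ptch1, also a hedgehog target, had 40.9 CPM in aged mice and 41.1 CPM in young mice on average (edgeR adjusted p = 0.977). Ihh, the hedgehog ligand of prehypertrophic chondrocytes, had 0.844 to 2.62 CPM in aged mice and 0.873 to 1.49 CPM in young mice (edgeR adjusted p = 0.253).

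Of 12 genes that take part in making the sugar chains of the matrix, 11 of them for the chondroitin sulfate of aggrecan and 1, Has2, for hyaluronan, 2 were lower, 10 did not pass and 0 were higher (0 also at an unadjusted p of at most 0.05, with DESeq2 and with limma-voom). The lower ones were the sulfotransferase gene Chst3 and the chain polymerizing factor gene Chpf, which fell by 0.78 and 0.80 (edgeR adjusted p = 6.2e-04 and 0.00395), less than Acan itself in size. Of 10 genes of cartilage matrix breakdown 3 were lower, 7 did not pass and 0 were higher (0 also at an unadjusted p of at most 0.05, with DESeq2 and with limma-voom). The aggrecanase gene Adamts4 fell by 1.54, the membrane collagenase gene Mmp14 by 0.98 and the collagenase gene Mmp13 by 1.70 (edgeR adjusted p = 0.00486, 0.00675 and 0.0349). Of 10 genes of hypertrophic and mineralizing cartilage Alpl and Mmp13 were lower, Vegfa was higher and 7 did not pass. Some genes are in more than 1 list, as Mmp13 is counted under breakdown too and Alpl among the osteoblast markers. The counts of these lists are therefore not separate. Alpl, a phosphatase of mineralization, fell by 1.18, and Vegfa, which draws vessels into cartilage, rose by 0.74 (edgeR adjusted p = 0.0122 and 0.0420).

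Markers of other tissues were measured because Comp, Chad and Sox9 are also expressed outside cartilage. Of 10 tendon and ligament markers 3 were lower (Thbs3, Lum and Kera), 7 did not pass and 0 were higher (0 also at an unadjusted p of at most 0.05, with DESeq2 and with limma-voom). Thbs3, a relative of Comp, fell by 0.93, and Lum and Kera, which encode small proteoglycans of collagen fibrils, had log2 fold changes of -2.55 and -1.24 (edgeR adjusted p = 0.00488, 0.00603 and 0.0393). The summed level of the 10 markers was 220.0 to 641 CPM in aged mice and 678 to 849 CPM in young mice. Within it Lum had 8.39 to 54.9 CPM in aged mice and 126 to 233 CPM in young mice, and without Lum the groups overlap. None of the defining markers was at 0: Scx averaged 9.84 ± 1.93 CPM in aged mice and 10.5 ± 2.83 CPM in young mice, and Tnmd 4.32 ± 2.66 CPM in aged mice and 5.93 ± 1.74 CPM in young mice (SD, n = 5 each). Scx and Tnmd did not pass, with log2 fold changes of -0.10 and -0.45 (edgeR adjusted p = 0.771 and 0.527). The 2 most abundant, Fmod and Thbs4, did not pass (edgeR adjusted p = 0.129 and 0.757). Aged mouse 4, the lowest aged mouse in Comp, Chad and Sox9 and also in Acan, Hapln1 and Col9a1, was lowest in the tendon sum. It was lowest in the muscle sum too (11222 CPM), so its low values are not particular to tendon markers. With the mean of these markers as a covariate 0 of the 10 cartilage genes passed (edgeR adjusted p = 0.0760 for Acan, 0.123 for Hapln1, 0.124 for Col9a1, 0.0679 for Col9a2 and 0.187 for Col10a1), with log2 fold changes of -2.95, -3.09, -4.60, -4.11 and -2.06, and Comp and Sox9 had positive ones of 0.30 and 0.10. In this fit Chad had a log2 fold change of -0.54 (edgeR adjusted p = 0.534), against -1.19 without the covariate. Over all genes the calls in this fit were 125 lower and 308 higher, against 798 and 812 without the covariate, and its part in the result was not tested.

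Of 12 osteoblast markers 7 were lower and 5 did not pass, with a median log2 fold change of -1.20. At an unadjusted p of at most 0.05 9 were lower, as with DESeq2 and with limma-voom. Their sum, mostly Col1a1 and Col1a2, was 19079 to 47763 CPM in aged mice and 45286 to 95530 CPM in young mice. Smpd3, an enzyme gene needed for mineralization, fell by 1.04, the osteocalcin gene Bglap2 fell by 1.97 and the osteonectin gene Sparc fell by 1.54 (edgeR adjusted p = 0.0113, 0.0120 and 0.0121). The collagen genes Col1a1 and Col1a2 had log2 fold changes of -1.22 and -1.30 (edgeR adjusted p = 0.0267 and 0.0170). Of 11 tested muscle markers 0 passed with edgeR (1 higher at an unadjusted p of at most 0.05, 0 with DESeq2 and with limma-voom), and their sum was 11222 to 29106 CPM in aged mice and 7664 to 23758 CPM in young mice. The most abundant of them were the myosin gene Myh4 and the actin gene Acta1, with log2 fold changes of 0.55 and 0.27 (edgeR adjusted p = 0.253 and 0.622). Of 8 osteoclast markers 0 passed (2 lower at an unadjusted p of at most 0.05, 1 with DESeq2, 0 with limma-voom). Of their log2 fold changes 7 were negative and 1 positive, with a median of -0.58. The most abundant were the gelatinase gene Mmp9 (log2 fold change of -0.26) and the integrin gene Itgb3, the positive one at 0.28 (edgeR adjusted p = 0.603 and 0.346). Of 10 marrow blood cell markers 0 passed (2 lower at an unadjusted p of at most 0.05, 2 with DESeq2, 0 with limma-voom), the most abundant being the globin genes Hbb-bs and Hba-a1, which have near-identical copies (edgeR adjusted p = 0.511 and 0.789).

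Among the tested genes outside the 10 whose deviations from their own young mean were most like the mean deviation of the cartilage genes were Rag2, AI593442, Vpreb3, Itm2a, Col6a1, Sox11 and Klhl14. The likeness was the root mean square difference in log2 CPM over the 10 libraries, which was 0.46 for Rag2 and 0.54 for Klhl14, and 0.53 (Col10a1) to 1.35 (Col9a1) for the cartilage genes themselves. Genes picked in this way are low in aged mice by the choice itself, so the adjusted p-values given for them are not separate results. Col6a1, a chain of the type VI collagen that surrounds chondrocytes and is made by many other cells, averaged 72.8 ± 13.2 CPM in aged mice and 211 ± 42.8 CPM in young mice (SD, n = 5 each; log2 fold change of -1.53, edgeR adjusted p = 2.3e-04). Itm2a, which encodes a membrane protein, averaged 5.67 ± 1.57 CPM in aged mice and 22.8 ± 6.06 CPM in young mice (edgeR adjusted p = 5.6e-04). Rag2 and Vpreb3 are genes of developing lymphocytes.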

How the data were processed

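For 10 libraries (1 per mouse) the authors deposited raw read counts, which they made, per the paper's methods, by trimming with Cutadapt, aligning with STAR to GRCm38.p6 and counting with featureCounts. Libraries were depleted of ribosomal RNA and enriched for polyadenylated RNA. The labels name a human genome build, but 38248 of the 38962 identifiers have the same start and end in GENCODE vM21 (GRCm38), all 10 cartilage genes among them. No source used here names the annotation release or the strand setting. The deposited gene length, in bases and used for levels per kilobase, equals the merged exons in GENCODE vM21 for these genes.

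Counts were analysed with R 4.3.3 and edgeR 4.0.16: filter with a minimum count of 10 and a minimum total of 15, TMM scaling, robust quasi-likelihood fit of age group, and Benjamini-Hochberg adjustment over all tested genes. Standard errors were derived from the fold change and its F statistic. The threshold for a call was an adjusted p of 0.05. Replicates are separate mice. Counts of 31788232 to 45075335 per library set the precision, and counting error is only part of the spread. SDs of log2 CPM used a prior count of 2 and ratios a prior of 0.5 counts per gene. Alternatives were other scalings, no filter, DESeq2 1.42.0, limma-voom 3.58.1, marker covariates, the replicate number as a block, stricter thresholds and leaving out each library. The steps were tested on simulated data. The genes and lists were chosen with earlier results of these data known. Genes outside the 10 were named by a rule: up to 3 that passed with the smallest p in each direction of a list, the 2 most abundant markers of other cells, and the 8 nearest in pattern, of which 1 is not reported here. Sox5, Sox6, Mef2c, Has2, Ihh, Ptch1, Col11a2, Tnmd, Scx and the untested markers are named outside that rule, after their values were seen. Promoter sequences are those of RefSeq. Figures were made with Python 3.11.15 and matplotlib 3.10.9.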

Additional observations from a re-analysis of the deposited data

How the results depend on the processing

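The number of lower cartilage genes was 5, with 4 to 6 when each library was left out in turn and 4 to 6 under the other alternatives, apart from the tendon marker covariate, where it was 0. With that covariate Comp and Sox9 had log2 fold changes of 0.30 and 0.10, the cause was not tested, and the median of the 10 genes was -2.15. Of the 12 ratios within libraries, 7 passed, with 7 to 8 when each library was left out and 7 with a prior of 2 counts. When each library was left out, the log2 fold change of Comp ran from -0.25 to 0.031, which was the value without aged mouse 4. When each library was left out, the difference ran from -0.66 to 0.11 for Col9a1/Acan, -0.12 to 0.53 for Col9a2/Acan and -0.47 to 0.12 for Hapln1/Acan. Over all genes 1283 were lower and 1545 higher with DESeq2, and 386 and 300 without young mouse 2. Scaled by total counts alone, 917 genes were lower and 285 higher over all genes, the median of all genes moved to -0.16, and the number of lower cartilage genes was again 5. Deviations of libraries with the same replicate number correlated between -0.10 and 0.19, so the numbers were not taken as pairs. With the number as a replicate block 5 cartilage genes were lower and 0 ratios passed, since the smallest p of 5 pairs is 0.0625. The scarce aged counts of Hapln1, Col9a1 and Col9a2 limit their fold changes.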
